A study of Mus musculus with 12 samples.

Results

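The 48 genes described here encode the machinery that licenses replication origins, opens them and copies DNA in S phase, with the E2F factors that control them. They were taken by name from 55421 gene identifiers through the GENCODE vM21 annotation, from a list chosen with earlier results of these data known. All 48 were found and passed the expression filter in both cell lines. They were grouped into 8 roles: origin recognition and licensing, the MCM helicase, helicase activation, primase and polymerases, the clamp with its loader, RPA and lagging-strand enzymes, nucleotide supply, the fork checkpoint with maintenance methylation, and E2F factors.

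The study sequenced messenger RNA of 2 female mouse cell lines, each with rebastinib (5 nM for 6 h) and without it, in 12 libraries. Dose and time were recorded for the rebastinib libraries alone, so whether controls were matched in time is not known. The groups were ID8 with rebastinib, ID8 control, PMJ2R with rebastinib and PMJ2R control, each with 3 libraries. ID8 is an ovarian surface epithelial cancer line labelled as wild type on the C57BL6J background. PMJ2R is a peritoneal macrophage line that carries the oncogenes v-raf and v-myc, was grown in another medium, and like ID8 stands for 1 line only. Rebastinib inhibits the receptor kinase TIE2. The gene of TIE2, Tek, was at 0 in all libraries of both ID8 groups. In neither PMJ2R group was Tek at 0 in all libraries, and its level there is not given here. Through which target the drug acted was not tested. The series title places rebastinib in ovarian cancer growth, and the comparisons here ask how each line's transcripts changed with the drug. Chemotherapy arms that the series design names are not analysed here. The labels do not say that replicates were separate cultures, and the p-values therefore cover the spread between these libraries alone, which may be technical.

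Library totals ran from 19025504 to 27070556 counts. Macrophage markers reached 1 CPM (counts scaled to a common library size) or more for 12 of 13 genes in PMJ2R with rebastinib and in PMJ2R control, and for 3 of 13 in both ID8 groups, where Adgre1, Itgam and Spi1 were at 0. Ovarian and mesothelial markers reached it for 8 of 12 in ID8 with rebastinib, 12 of 12 in ID8 control and 0 of 12 in PMJ2R. Their summed level was 2910 to 3060 CPM in ID8 with rebastinib and 4300 to 4550 CPM in ID8 control. Of 6 endothelial markers, Tek among them, 5 were under 1 CPM in each PMJ2R group. These 6 summed to 4.65 to 5.41 CPM in PMJ2R with rebastinib and 5.14 to 6.34 CPM in PMJ2R control. Rebastinib libraries of both lines gave more of their counts to some classes of abundant transcripts. Genes that overlap ribosomal RNA took 1.05 to 1.60% of counts in ID8 with rebastinib and 0.106 to 0.355% in ID8 control, against 5.62 to 5.99% in PMJ2R with rebastinib and 0.0927 to 0.172% in PMJ2R control. Mitochondrially encoded genes took 4.74 to 5.12% with rebastinib and 2.92 to 3.14% in control in ID8, and 5.51 to 5.88% with rebastinib and 3.497 to 4.25% in control in PMJ2R. Ribosomal protein genes took 8.57 to 10.6% with rebastinib and 4.66 to 5.38% in control in ID8, and 7.59 to 7.90% with rebastinib and 4.98 to 5.75% in control in PMJ2R. The labels give no batch and no RNA quality value, so handling that differed between treated and untreated libraries cannot be told apart from the drug in any comparison below, and the part of these transcripts in the results was not tested beyond the scalings given.

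Replication begins when the origin recognition complex, Cdc6 and Cdt1 load the MCM hexamer onto DNA in G1. The kinases Cdc7-Dbf4 and CDK then recruit Cdc45, GINS and Mcm10, which turn the loaded hexamer into a moving helicase, and polymerases alpha, delta and epsilon follow with the PCNA clamp, its loader RFC and the single-strand binder RPA. Many of these genes are transcribed at the G1/S boundary under E2F factors, of which E2f1 and E2f2 activate and E2f8 represses, so their messages are widely read as a sign of dividing cells.

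Rebastinib was followed by lower levels of nearly the whole set in PMJ2R and by a mixed pattern in ID8. In PMJ2R, 43 of the 48 genes were lower with rebastinib than in control, 3 were higher and 2 did not pass the test (edgeR, adjusted p under 0.05 over all genes). Of all 14010 genes tested in PMJ2R, 43.6% were lower and 40.1% were higher. The median log2 fold change was -0.91 over the set and -0.05 over all genes. In ID8, 21 of the 48 were lower, 13 were higher and 14 did not pass the test, where 42.0% of all 14829 genes tested were lower and 38.4% were higher. The median in ID8 was -0.10 over the set and -0.07 over all genes, so the set as a whole stayed close to the background of that line. At a log2 fold change of -1 or lower stood 23 members in PMJ2R, where 25.8% of all genes did, and 8 members in ID8, where 24.4% of all genes did. In bulk libraries such as these, fewer cells in which a gene is expressed and less RNA of it per cell cannot be told apart.

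The 48 genes together took 0.480 to 0.504% of all counts in ID8 with rebastinib, against 0.692 to 0.715% in ID8 control. They took 0.311 to 0.314% in PMJ2R with rebastinib, against 0.756 to 0.780% in PMJ2R control. The groups did not overlap in either line, and the gap was wider in PMJ2R. These shares also fall when other transcripts take more of a library, and fold changes below use TMM scaling, which centres a trimmed mean of all genes' log ratios at 0. With library totals as the sole scaling, the median of all genes was -0.50 in ID8 and -0.60 in PMJ2R. The members' median, taken relative to that of all genes, was -0.03 in ID8 and -0.86 in PMJ2R under both scalings. Under library totals 1 member was higher and 37 were lower in ID8, and 48 were lower in PMJ2R. All 14 members that did not pass the test in ID8 under TMM scaling were then called lower, so a statement that a member was higher, or did not pass the test, holds relative to the other genes of its library.

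**Figure D1:**
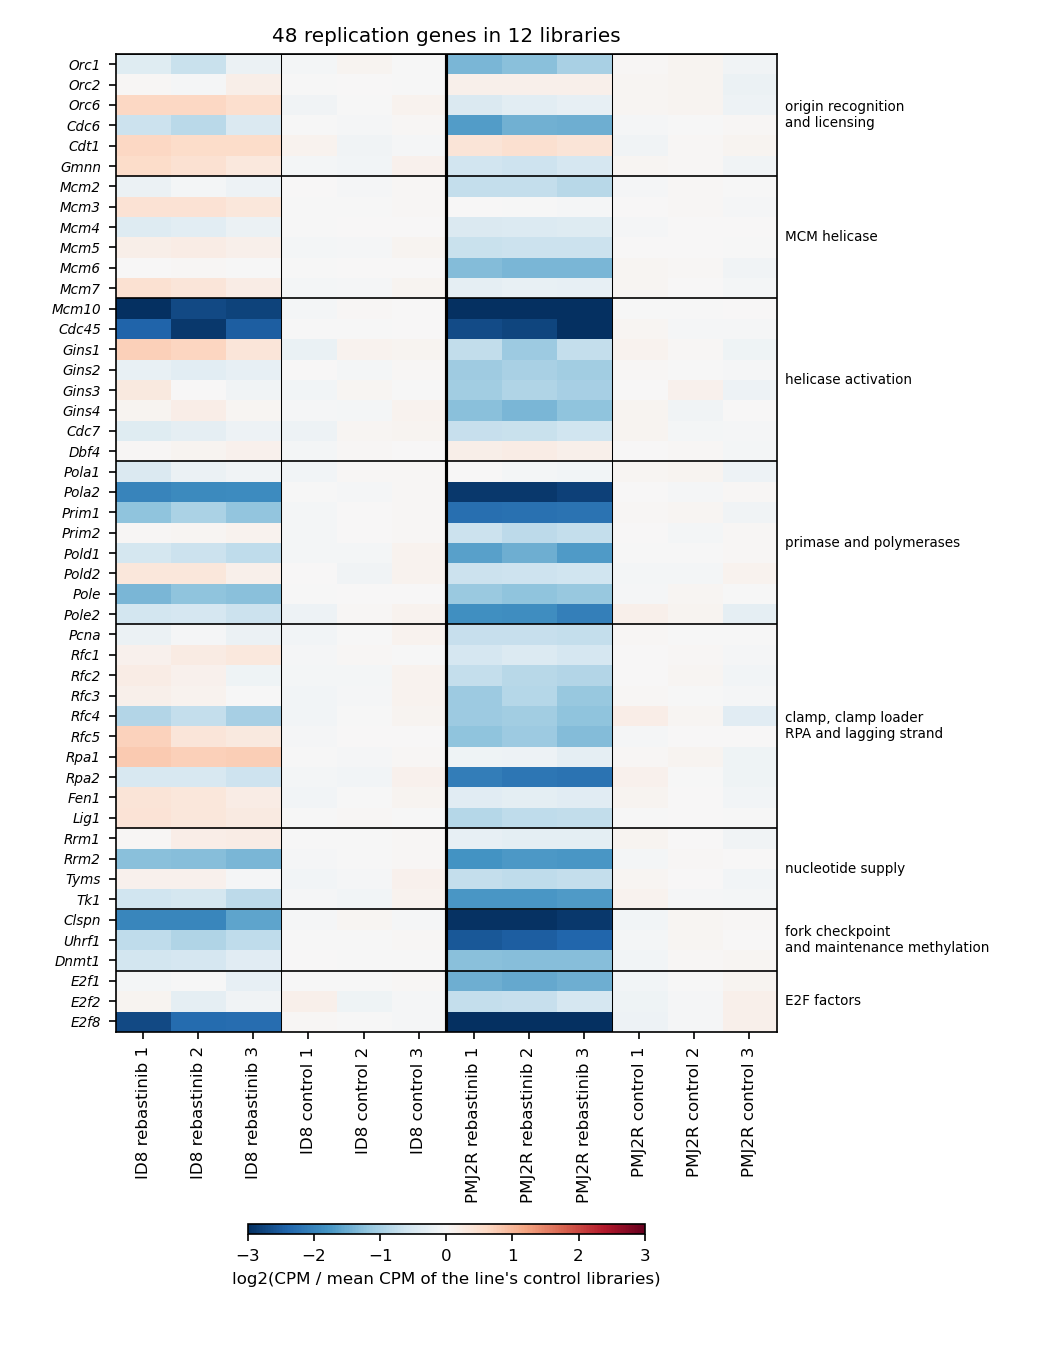
Each cell gives the log2 ratio of a gene's TMM-scaled CPM in 1 library to the mean of its line's control libraries, for the 48 genes (rows, by role) in 12 libraries (columns), with colours that stop at 3 in either direction. PMJ2R rebastinib columns are lower than control in nearly every row, ID8 rebastinib columns hold both directions, and Mcm10, Cdc45, Pola2, Clspn and E2f8 are low in both lines; the higher ID8 rows are higher relative to TMM scaling, and with library totals alone 1 of them was called higher.

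Over all genes, transcript length was weakly related to the fold changes in both lines, and GC content less so. Over all genes, the log2 fold change correlated with log2 exon length at r = -0.236 in ID8 and r = -0.173 in PMJ2R (across genes, which are not independent), and over the 48 members at r = -0.286 in ID8 and r = -0.114 in PMJ2R. With exon GC content the correlation was r = -0.000336 in ID8 and r = -0.0848 in PMJ2R over all genes, and r = 0.073 in ID8 and r = -0.0791 in PMJ2R over the members. By rank, Spearman's rho in PMJ2R was -0.155 with length and -0.106 with GC content over all genes, and -0.0511 and -0.12 over the members. In ID8 it was -0.242 with length and 0.00418 with GC content over all genes, and -0.243 and 0.107 over the members. With offsets that remove each library's trend over length and GC content, 20 members were lower and 19 higher in ID8, and 40 were lower and 6 higher in PMJ2R. The median over members was then 0.03 in ID8 and -0.73 in PMJ2R, each against 0.04 over all genes.

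The single calls in ID8 depended on these offsets more than those in PMJ2R. In ID8, 5 calls were lost (Gmnn, Gins1, Gins2, Pola1 and Dnmt1), 8 members were newly called higher (Mcm2, Mcm6, Dbf4, Prim2, Rfc2, Rrm1, Tyms and E2f2) and 2 newly called lower (Gins4 and Pcna). A further 12 stayed called in the same direction with a log2 value over 1.5 times smaller or larger, among them Pold1, Pole, Cdc6 and Tk1. In PMJ2R the call of E2f2 was lost, Mcm3 was newly called higher, Mcm7 and Rpa1 were called higher in place of lower, and 14 others stayed called with a value over 1.5 times smaller or larger.

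Of 6 origin recognition and licensing genes, 2 were higher and 4 lower in PMJ2R, and 3 were higher and 2 lower in ID8. Of all genes tested, 40.1% were higher and 43.6% lower in PMJ2R, and 38.4% were higher and 42.0% lower in ID8. The counts of so small a role are not read as a trait of it. Cdt1, which loads the helicase together with Cdc6, was higher in both lines. It stood at 205, 195 and 194 CPM in ID8 with rebastinib, against 144, 124 and 130 CPM in ID8 control. In PMJ2R it stood at 189, 201 and 189 CPM with rebastinib, against 134, 148 and 152 CPM in control. The groups did not overlap in either line, with log2 fold changes of 0.58 ± 0.0718 in ID8 (SE, adjusted p = 3.52e-06) and 0.42 ± 0.0527 in PMJ2R (adjusted p = 8.66e-07), but under library totals alone these were 0.14 (adjusted p = 0.0819) and -0.14. Cdc6, the ATPase that works beside Cdt1 in loading, was lower in both. It had 40.9, 36.1 and 47.3 CPM in ID8 with rebastinib, against 63.6, 62.6 and 64.7 CPM in ID8 control, a log2 fold change of -0.61 ± 0.0913 (adjusted p = 2.2e-05). In PMJ2R it had 15.2, 17.8 and 17.6 CPM with rebastinib, against 47.3, 48.4 and 49.5 CPM in control, at -1.52 ± 0.0725 (adjusted p = 1.05e-12). The 2 loading factors thus moved in opposite directions in each line relative to other genes. With the length and GC offsets Cdc6 was at -0.35 in ID8 and -1.18 in PMJ2R, and Cdt1 at 0.70 in ID8 and 0.82 in PMJ2R.

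Geminin (Gmnn), the inhibitor of Cdt1, was higher in ID8 at 0.43 ± 0.0848 and lower in PMJ2R at -0.56 ± 0.0662, and in ID8 it was at -0.00 under library totals and at 0.03 (adjusted p = 0.629) with the length and GC offsets. Orc6, a small subunit of the origin recognition complex, followed the same split with 124, 125 and 114 CPM in ID8 with rebastinib, against 75.1, 79.6 and 87.2 CPM in ID8 control, and 42.7, 46.5 and 48.8 CPM in PMJ2R with rebastinib, against 60.7, 61.2 and 52.4 CPM in PMJ2R control. Its log2 fold changes were 0.58 ± 0.0762 in ID8 and -0.34 ± 0.0699 in PMJ2R, with 0.15 in ID8 (adjusted p = 0.0818) under library totals and 0.32 in ID8 and -0.51 in PMJ2R with the length and GC offsets. Orc1, the ATPase subunit whose level oscillates through the cell cycle, was lower in both lines, at -0.38 ± 0.12 in ID8 and -1.19 ± 0.111 in PMJ2R. The ID8 call of Orc1 did not hold without rebastinib replicate 2, where its value was -0.25 with adjusted p = 0.0621. Orc2, a core subunit, was higher in PMJ2R by 0.16 ± 0.058 (adjusted p = 0.0194), with 180, 180 and 179 CPM with rebastinib against 168, 172 and 144 CPM in control. That call rested on control replicate 3, without which the value was 0.07 (adjusted p = 0.103), it was at 0.10 (adjusted p = 0.102) with a filter of 5 CPM, it turned to -0.05 with no expression filter and to -0.40 under library totals, and 29.8% of the exon bases of Orc2 are shared with Nif3l1 on the opposite strand.

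The MCM helicase subunits, which form 1 ring with each subunit present once, did not change together. In PMJ2R, 5 of the 6 were lower, where 43.6% of all genes were. The values of the 6 ranged from -1.35 for Mcm6 to -0.00 for Mcm3, which did not pass the test. Mcm3 there was called higher at 0.39 (adjusted p = 4.04e-09) with the length and GC offsets and lower at -0.21 (adjusted p = 4.75e-05) with no expression filter. Mcm6 held 160, 152 and 151 CPM in PMJ2R with rebastinib, against 406, 405 and 366 CPM in control, a log2 fold change of -1.35 ± 0.0508 (adjusted p = 4.67e-14). In ID8 the same gene held 323, 326 and 315 CPM with rebastinib, against 315, 318 and 320 CPM in control, and did not pass the test at 0.02 ± 0.0626 (adjusted p = 0.81), although it was called higher at 0.19 (adjusted p = 0.00333) with the length and GC offsets and lower at -0.42 under library totals. The PMJ2R groups were far apart for Mcm6, and the ID8 groups overlapped.

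Mcm3 was at the other end of the ring. It held 506, 497 and 490 CPM in PMJ2R with rebastinib, against 500.1, 511 and 487 CPM in control, which overlap, and 400.1, 402 and 377 CPM in ID8 with rebastinib, against 297, 294 and 304 CPM in control, which do not. Its log2 fold change in ID8 was 0.40 ± 0.0649 (adjusted p = 5.54e-05), and -0.04 under library totals. Mcm5 at 0.18 and Mcm7 at 0.35 were also higher in ID8, and under library totals they stood at -0.25 and -0.08. The Mcm5 call in ID8 was lost without control replicate 1 (0.15, adjusted p = 0.126), without control replicate 2 (0.16, adjusted p = 0.116) and without rebastinib replicate 2 (0.18, adjusted p = 0.0614), and also with no expression filter (0.16, adjusted p = 0.0808), with a filter of 5 CPM (0.09, adjusted p = 0.206) and with the replicate block (0.18, adjusted p = 0.0791). Mcm4 was the 1 subunit lower in ID8, with 192, 199 and 220 CPM with rebastinib against 248, 250 and 251 CPM in control, a log2 fold change of -0.29 ± 0.0688 (adjusted p = 0.00129), and in PMJ2R it was at -0.41. Mcm2, the subunit that also binds histones, was at -0.76 in PMJ2R and did not pass the test in ID8 at -0.13. With the length and GC offsets it was at -0.26 in PMJ2R and called higher in ID8 at 0.29 (adjusted p = 0.000269), and with a filter of 5 CPM it was called lower in ID8 at -0.22 (adjusted p = 0.00723). Mcm7 in PMJ2R was at -0.25 and turned to 0.25 with the length and GC offsets.

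In helicase activation, 7 of 8 genes were lower in PMJ2R and 4 of 8 in ID8, against 43.6% and 42.0% of all genes. Mcm10 had the most negative value of all members in both lines, except in ID8 with the length and GC offsets, where Cdc45 was at -2.53 and Mcm10 at -2.48. This gene, whose product joins the active helicase at firing and lies on chr2:4989714-5012791 (GRCm38, minus strand), had 8.73, 11.4 and 10.9 CPM in ID8 with rebastinib, against 71.5, 76.2 and 75.3 CPM in ID8 control. It had 3.83, 3.66 and 4.19 CPM in PMJ2R with rebastinib, against 49.03, 49.1 and 49.7 CPM in PMJ2R control. Every rebastinib library was far under every control library, 7.19-fold lower in ID8 (log2 -2.85 ± 0.0987, adjusted p = 1.37e-11) and 12.7-fold lower in PMJ2R (log2 -3.66 ± 0.0877, adjusted p = 2.05e-16). Cdc45, the helicase cofactor, had 8.33, 5.91 and 7.87 CPM in ID8 with rebastinib, against 43.1, 43.6 and 44.5 CPM in ID8 control, and 6.52, 6.24 and 4.95 CPM in PMJ2R with rebastinib, against 43.9, 40.7 and 40.9 CPM in PMJ2R control. It fell 5.9-fold in ID8 (log2 -2.56 ± 0.112) and 7.07-fold in PMJ2R (log2 -2.82 ± 0.0947), and the difference between the lines, -0.32 ± 0.157, did not pass the test (adjusted p = 0.0923), but passed it without ID8 rebastinib replicate 2 (-0.46, adjusted p = 0.0123) and under library totals (-0.39, adjusted p = 0.045).

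The 4 GINS subunits, which travel as 1 complex with Cdc45 and the MCM ring, parted in ID8. Gins1 had 34.1, 32.7 and 26.7 CPM in ID8 with rebastinib, against 18.2, 22.3 and 21.9 CPM in control, without overlap, a log2 fold change of 0.58 ± 0.111 (adjusted p = 0.000244). Under library totals it was at 0.14 (adjusted p = 0.233), and with the length and GC offsets at 0.12 (adjusted p = 0.214). Gins2 was lower in ID8 at -0.26 ± 0.067, and Gins3 and Gins4 did not pass the test there at 0.07 and 0.11, with Gins4 called lower at -0.29 (adjusted p = 0.00055) with the offsets. With the offsets Gins2 in ID8 was at -0.02 (adjusted p = 0.709), and it shares 67.3% of its exon bases with Gse1 on the opposite strand. In PMJ2R all 4 were lower, from -0.84 for Gins1 to -1.28 for Gins4, and from -0.56 for Gins2 to -1.45 for Gins4 with the offsets. The firing kinase was also split: Cdc7, the catalytic subunit, was lower in both lines (-0.26 in ID8, -0.65 in PMJ2R), while its activator Dbf4 had 106, 109 and 104 CPM in PMJ2R with rebastinib, against 94.3, 96.3 and 89.2 CPM in control. The Dbf4 groups did not overlap in PMJ2R (log2 0.19 ± 0.0499, adjusted p = 0.00224), the value was -0.37 under library totals and -0.02 (adjusted p = 0.791) with no expression filter, and in ID8 it did not pass the test at 0.08 but was called higher at 0.39 (adjusted p = 1.38e-05) with the offsets. The ID8 groups of Cdc7 overlapped, and its call there was lost without rebastinib replicate 1 (-0.20, adjusted p = 0.0631), rebastinib replicate 2 (-0.24, adjusted p = 0.0654), control replicate 2 (-0.24, adjusted p = 0.0756) or control replicate 3 (-0.22, adjusted p = 0.0876), and with DESeq2 (-0.22, adjusted p = 0.0576).

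**Figure D2:**
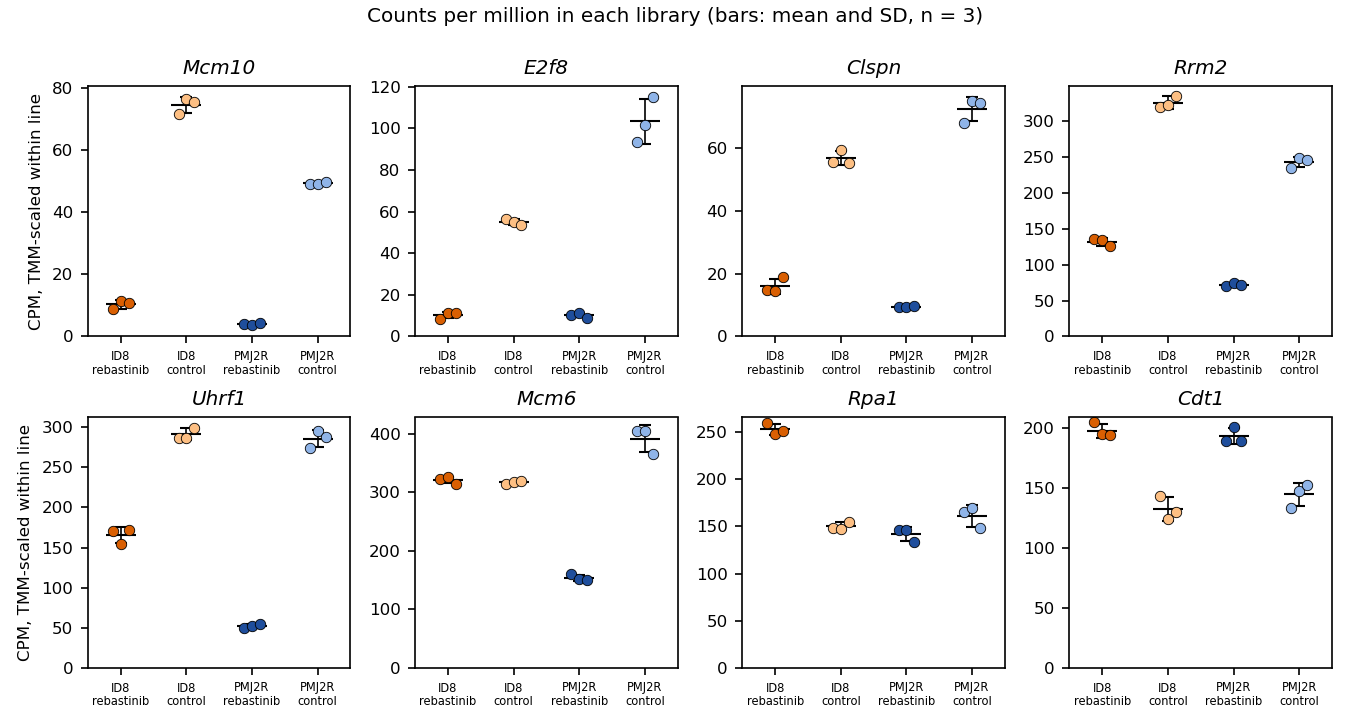
TMM-scaled CPM (y axis, from 0) of 8 members in each of the 12 libraries, with bars for the mean and SD of 3 libraries. Mcm10, E2f8, Clspn, Rrm2 and Uhrf1 are lower with rebastinib in both lines, Mcm6 and Rpa1 are lower in PMJ2R alone by the test under TMM scaling, with Rpa1 higher in ID8 (Mcm6 in ID8 was at -0.42 under library totals and Rpa1 in PMJ2R at 0.15 with length and GC offsets), and Cdt1 is higher in both under TMM scaling, with log2 values of 0.14 in ID8 and -0.14 in PMJ2R under library totals alone.

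Among primase and the polymerases, 7 of 8 were lower in PMJ2R and 6 of 8 in ID8, against 43.6% and 42.0% of all genes. Polymerase alpha, which starts each new strand with primase, showed the sharpest contrast between its subunits. Pola2, its accessory subunit, had 20.7, 21.7 and 21.8 CPM in ID8 with rebastinib, against 80.1, 79.9 and 83.9 CPM in control, and 27.5, 27.8 and 29.5 CPM in PMJ2R with rebastinib, against 207, 199.5 and 210 CPM in control. The groups were widely separated, at -1.92 ± 0.0752 in ID8 (adjusted p = 3.84e-11) and -2.86 ± 0.0544 in PMJ2R (adjusted p = 2.55e-17). Pola1, the catalytic subunit, had 102, 97.2 and 95.4 CPM in PMJ2R with rebastinib, against 106, 107 and 91.3 CPM in control, groups that overlap, and did not pass the test (-0.05 ± 0.0607, adjusted p = 0.468). It was called lower there if no expression filter was applied (-0.25, adjusted p = 2.09e-05) or control replicate 3 was left out (-0.13, adjusted p = 0.00697). In ID8 it was lower by a small margin, at -0.24 ± 0.0853. That call was lost without rebastinib replicate 1 (-0.14, adjusted p = 0.0837), without control replicate 2 (-0.22, adjusted p = 0.0639) or without control replicate 3 (-0.23, adjusted p = 0.0545), and the value was 0.08 with the length and GC offsets. The primase subunits also differed, but here the catalytic one had the more negative values: Prim1 was at -1.11 in ID8 and -2.23 in PMJ2R. Prim2, the large one, was at 0.07 (not called) in ID8 and lower in PMJ2R at -0.71, with 0.30 in ID8 (called higher, adjusted p = 0.000297) after the length and GC offsets.

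Pole, the catalytic subunit of the leading-strand polymerase, was lower by a similar amount in both lines, at -1.28 ± 0.0707 in ID8 and -1.15 ± 0.054 in PMJ2R. The difference of 0.07 ± 0.0886 between the lines did not pass the test (adjusted p = 0.532). With the length and GC offsets it was at -0.76 in ID8 and -0.69 in PMJ2R. Its partner Pole2 was lower at -0.57 in ID8 and -1.92 in PMJ2R. Of the lagging-strand polymerase, the catalytic Pold1 was lower in both (-0.64 in ID8, -1.59 in PMJ2R), and with the length and GC offsets it was at -0.18 in ID8 (adjusted p = 0.0254) and -1.03 in PMJ2R. The replicate block together with the offsets left the ID8 value at -0.18 (adjusted p = 0.0531). Pold2, its accessory subunit, had 125, 126 and 111 CPM in ID8 with rebastinib, against 99.4, 91.4 and 105 CPM in control, and 62.3, 62.5 and 64.2 CPM in PMJ2R with rebastinib, against 93.3, 93.5 and 104 CPM in control. It was higher in ID8 (0.29 ± 0.0781, adjusted p = 0.00371; -0.15 under library totals and 0.16 with the offsets) and lower in PMJ2R (-0.62 ± 0.0554).

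All 10 genes of the clamp, its loader, RPA and lagging-strand processing were lower in PMJ2R, while 5 were higher and 2 lower in ID8. Of all genes, 43.6% were lower in PMJ2R, and 38.4% were higher and 42.0% lower in ID8. The subunits of RPA, the trimer that coats single-stranded DNA, stood apart from each other. Rpa1, the large subunit, had 259, 248 and 251 CPM in ID8 with rebastinib, against 148.5, 148 and 155 CPM in control, 1.68-fold higher (log2 0.75 ± 0.0636, adjusted p = 6.47e-08). It was the 1 member still called higher in ID8 under library totals, at 0.32 (adjusted p = 0.000461). In PMJ2R, Rpa1 had 146, 146 and 133 CPM with rebastinib, against 165, 169 and 148 CPM in control, a log2 fold change of -0.18 ± 0.0563 that was at -0.13 (adjusted p = 0.0811) without rebastinib replicate 3 and turned to 0.15 with the offsets. Rpa2, the middle subunit, had 31.4, 31.3 and 28.6 CPM in ID8 with rebastinib, against 42.0, 41.4 and 48.2 CPM in control (-0.53 ± 0.0871). In PMJ2R it had 17.6, 16.7 and 16.2 CPM with rebastinib, against 81.2, 74.1 and 68.5 CPM in control, 4.43-fold lower (-2.15 ± 0.0752, adjusted p = 1.81e-14). RPA subunits therefore changed by unequal amounts in both lines, and Rpa2 had the more negative fold change in each.

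The clamp gene Pcna was lower in PMJ2R at -0.70 ± 0.0443 and did not pass the test in ID8 at -0.13 ± 0.0716 (adjusted p = 0.117). It was called lower in ID8 at -0.40 (adjusted p = 4.42e-06) with the length and GC offsets and at -0.22 (adjusted p = 0.012) with a filter of 5 CPM. Of the loader subunits, Rfc4 was lower in both lines, with 13.9, 15.6 and 12.7 CPM in ID8 with rebastinib, against 23.8, 25.4 and 27.1 CPM in ID8 control, and 10.4, 10.8 and 9.64 CPM in PMJ2R with rebastinib, against 25.8, 23.4 and 17.7 CPM in PMJ2R control. Its values were -0.86 ± 0.102 in ID8 and -1.12 ± 0.127 in PMJ2R (-1.34 in ID8 and -1.56 in PMJ2R with the offsets), and 12.7% of its exon bases are shared with the abundant Eif4a2 on the opposite strand. Rfc5 went opposite ways by line, with 165.5, 134 and 126.5 CPM in ID8 with rebastinib, against 101, 104.5 and 104.5 CPM in control, and 32.0, 34.6 and 30.1 CPM in PMJ2R with rebastinib, against 71.6, 74.8 and 74.5 CPM in control. It was higher in ID8 at 0.46 ± 0.0903 (0.02 and not called under library totals) and lower in PMJ2R at -1.19 ± 0.0617, with 0.73 in ID8 and -0.76 in PMJ2R after the offsets. Rfc1, the large subunit, showed the same split at 0.24 in ID8 and -0.46 in PMJ2R, but in ID8 it was at -0.19 under library totals and at 0.15 (adjusted p = 0.0627) with a filter of 5 CPM. Rfc2 and Rfc3 did not pass the test in ID8, each at 0.08, and were lower in PMJ2R at -0.80 for Rfc2 and -1.01 for Rfc3. In ID8 Rfc2 was called higher at 0.45 (adjusted p = 0.000291) with the offsets and at 0.20 (adjusted p = 0.0208) without rebastinib replicate 3. Rfc2 shares 15.1% of its exon bases with Lat2 and Rfc5 shares 10.7% with Wsb2, both on the opposite strand.

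Lig1, the ligase that seals Okazaki fragments, had 203, 191 and 184 CPM in ID8 with rebastinib, against 149.7, 154 and 151 CPM in control, and 67.7, 71.6 and 72.6 CPM in PMJ2R with rebastinib, against 121, 122 and 121 CPM in control. The groups were apart in both lines and in opposite directions, 0.34 ± 0.066 in ID8 (-0.09 under library totals) and -0.78 ± 0.0494 in PMJ2R, and 0.61 in ID8 and -0.29 in PMJ2R with the offsets. Fen1, the flap nuclease of the same step, was at 0.31 in ID8 (-0.12 under library totals) and -0.33 in PMJ2R, but 84.2% of its exon bases are shared with Tmem258 and Gm10143 on the opposite strand. If the counting did not use strand, reads of Fen1 and Tmem258 cannot be separated, and the strand setting is not given in the sources used here.

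For nucleotide supply, Rrm2, the member with the highest level per transcript length (TPM) in ID8 control cells, fell in both lines. It encodes the small subunit of ribonucleotide reductase, whose level sets the enzyme's activity in S phase. It had 136, 135 and 126 CPM in ID8 with rebastinib, against 319.6, 322.5 and 336 CPM in control (-1.30 ± 0.0664, adjusted p = 4.34e-10). In PMJ2R it had 70.0, 74.04 and 72.2 CPM with rebastinib, against 235, 248.5 and 246 CPM in control (-1.75 ± 0.0481, adjusted p = 9.68e-16). Rrm1, the large subunit of the same enzyme, changed less: it was at -0.28 ± 0.0508 in PMJ2R and did not pass the test in ID8 at 0.16 ± 0.0709 (adjusted p = 0.0501). In ID8 Rrm1 was called higher with the length and GC offsets (0.55, adjusted p = 2.23e-07), with DESeq2 (0.20, adjusted p = 0.00719), with RLE size factors (0.20, adjusted p = 0.0161), with TMM set without the abundant transcripts (0.17, adjusted p = 0.0367) and without rebastinib replicate 1 (0.23, adjusted p = 0.00388), and lower under library totals (-0.27). Thymidine kinase Tk1 was lower in both, at -0.64 in ID8 and -1.73 in PMJ2R (-0.30 in ID8 with the offsets). Thymidylate synthase Tyms was lower in PMJ2R at -0.73 and not called in ID8 at 0.08, where the offsets gave 0.35 (called higher, adjusted p = 0.000609).

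All 3 genes of the fork checkpoint and maintenance methylation were lower in both lines, where 43.6% of all genes in PMJ2R and 42.0% in ID8 were. Clspn, the adaptor that lets ATR activate the checkpoint kinase Chk1 at stalled forks, had 14.7, 14.6 and 18.9 CPM in ID8 with rebastinib, against 55.7, 59.6 and 55.5 CPM in control. It had 9.26, 9.31 and 9.83 CPM in PMJ2R with rebastinib, against 68.1, 75.2 and 74.6 CPM in control. The fall was 3.53-fold in ID8 (log2 -1.82 ± 0.102, adjusted p = 1.07e-09) and 7.67-fold in PMJ2R (log2 -2.94 ± 0.0745, adjusted p = 3.85e-16). Uhrf1, which finds hemimethylated DNA behind the fork and recruits Dnmt1, had 171, 155 and 172.5 CPM in ID8 with rebastinib, against 287, 286 and 299.6 CPM in control, and 49.3, 51.8 and 54.6 CPM in PMJ2R with rebastinib, against 274.5, 295.6 and 288 CPM in control. It was 1.75-fold lower in ID8 (log2 -0.81 ± 0.0683) and 5.51-fold lower in PMJ2R (log2 -2.46 ± 0.0531, adjusted p = 6.53e-17). Dnmt1, the maintenance methyltransferase itself, was at -0.46 in ID8 and -1.26 in PMJ2R, with 0.02 in ID8 (not called) and -0.68 in PMJ2R after the length and GC offsets.

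Among the E2F genes, the repressor moved most. E2f8 had 8.5, 11.1 and 11.3 CPM in ID8 with rebastinib, against 56.6, 55.0 and 53.5 CPM in control, and 10.5, 11.1 and 9.07 CPM in PMJ2R with rebastinib, against 93.7, 101.5 and 115 CPM in control. It was 5.33-fold lower in ID8 (log2 -2.41 ± 0.104, adjusted p = 9.42e-11) and 10.1-fold lower in PMJ2R (log2 -3.34 ± 0.0907, adjusted p = 2.21e-15), and the rebastinib libraries of both lines, each scaled within its line, lay at about the same level. The activator E2f1 had 18.5, 17.8 and 18.6 CPM in PMJ2R with rebastinib, against 48.7, 50.9 and 53.9 CPM in control (-1.48 ± 0.0687, adjusted p = 7.17e-13). In ID8 it had 47.6, 48.7 and 41.8 CPM with rebastinib, against 48.6, 48.7 and 50.5 CPM in control, which overlap, and did not pass the test (-0.10 ± 0.0795, adjusted p = 0.251), though a filter of 5 CPM gave -0.19 there (adjusted p = 0.0368). E2f2, also an activator, was lower in PMJ2R at -0.63 and not called in ID8 at -0.09, and with the length and GC offsets it was at -0.04 (adjusted p = 0.70) in PMJ2R and called higher in ID8 at 0.30 (adjusted p = 0.00433).

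The difference between the lines was tested directly as the PMJ2R response minus the ID8 response over all 12 libraries. It passed the test as negative, that is, more negative in PMJ2R, for 40 of the 48 genes and for 30.6% of all 16566 genes, and 21.8% of all genes passed it as positive. The median difference was -0.88 over the members and -0.10 over all genes. Pola1, Pole, Dbf4 and Orc2 had positive values, of 0.13, 0.07, 0.05 and 0.04. In edgeR 0 members were called with a positive difference, also 0 at an unadjusted p under 0.05, and DESeq2 called 1, Pole, at 0.20 (adjusted p = 0.0349). Orc2, Cdt1, Mcm4, Cdc45, Dbf4, Pola1, Pole and Rfc4 were the 8 that did not pass, of which Cdt1 and Mcm4 did under library totals and with no expression filter, and Cdt1, Mcm4, Cdc45 and Rfc4 each did without 1 or more single libraries. The smallest p belonged to Uhrf1 (-1.71 ± 0.0894, adjusted p = 2.53e-13), Mcm6 (-1.42 ± 0.0789, adjusted p = 7.6e-13), Rfc5 (-1.71 ± 0.116), Rpa2 (-1.67 ± 0.117), Lig1 (-1.19 ± 0.0836) and E2f1 (-1.44 ± 0.109). With the length and GC offsets 39 members had a more negative response in PMJ2R, and Mcm3 was the 1 lost (-0.15, adjusted p = 0.0578).

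Read across both lines, 20 genes were lower in each, 11 were higher in ID8 and lower in PMJ2R, and Cdt1 alone was higher in both under TMM scaling. A further 12 were lower in PMJ2R and not called in ID8, Orc2 and Dbf4 were higher in PMJ2R and not called in ID8, Mcm3 was higher in ID8 and not called in PMJ2R, and Pola1 was lower in ID8 and not called in PMJ2R. Of all genes tested, 42.0% were lower in ID8 and 43.6% in PMJ2R, and the shares with each pair of calls were not computed. Members at a log2 fold change of -1 or lower in both lines numbered 8 under TMM scaling: Mcm10, Cdc45, Pola2, Prim1, Pole, Rrm2, Clspn and E2f8. Of all genes, 24.4% stood there in ID8 and 25.8% in PMJ2R, and the share in both lines was not computed. The 8 members belong to 5 of the 8 roles, with 2 from helicase activation, 3 from primase and polymerases, and 1 each from nucleotide supply, the fork checkpoint group and the E2F factors. Under library totals the number was 14, with Cdc6, Pold1, Pole2, Rfc4, Tk1 and Uhrf1 added, and with the length and GC offsets it was 8, with Rfc4 in place of Pole. Across the 48 genes the ID8 and PMJ2R log2 fold changes correlated at Pearson's r = 0.869 and Spearman's rho = 0.763, and at r = 0.89 and rho = 0.844 with the length and GC offsets. This is a description across genes that share length and composition trends, from comparisons that share no library. The same correlation over all genes was not computed. Mcm10, Cdc45, E2f8, Pola2 and Clspn held the 5 most negative values in each line under TMM scaling, and with the offsets Rrm2 at -1.50 passed Clspn at -1.46 in ID8.

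**Figure D3:**
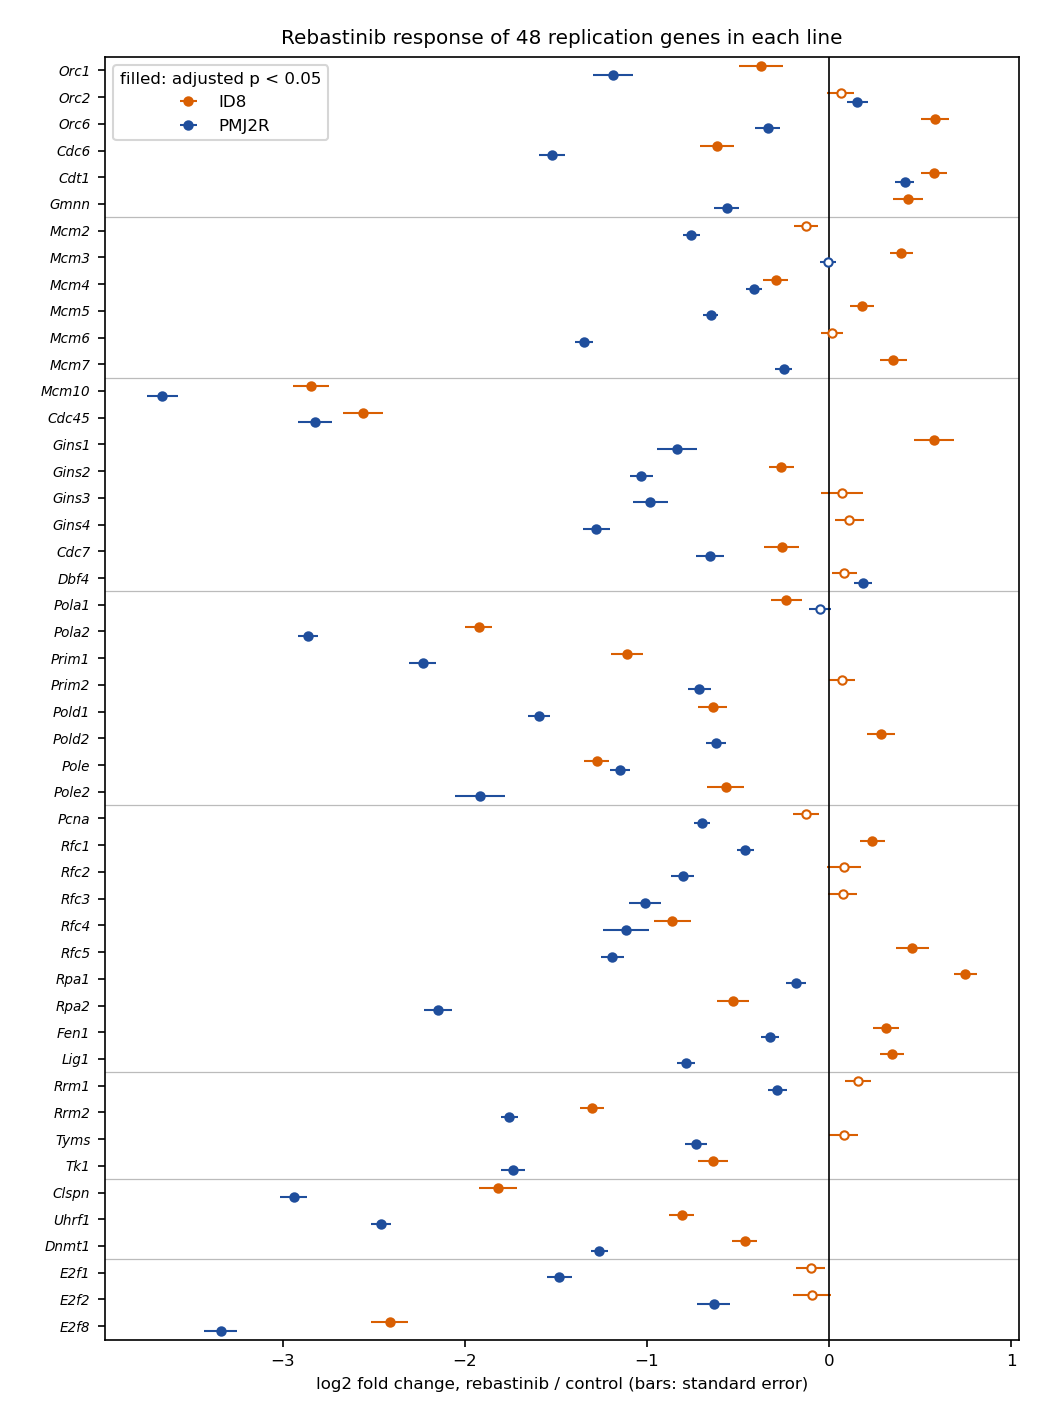
Log2 fold change of rebastinib over control (x axis) for the 48 genes (y axis, by role), with standard errors, in ID8 (orange) and PMJ2R (blue), filled where the adjusted p was under 0.05. Most blue points lie left of their orange partner and left of 0, while 13 orange points are filled to the right of 0, 8 of which change sign under library totals alone, as do the 3 filled blue points to the right of 0.

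In control cells members differed between the lines in both directions, no more often than genes at large, while their summed levels were close. Of the 48, 14 (29.2%) were higher and 22 (45.8%) lower in PMJ2R than in ID8. Of all 15924 genes tested, 39.4% were higher and 42.9% lower. The medians were -0.10 over the members and -0.03 over all genes. Summed over the set, the level per transcript length was 5835 ± 159 TPM in PMJ2R control and 5612 ± 65.6 TPM in ID8 control (SD, n = 3 each). The MCM ring held the largest summed level of the 8 roles, 1792 ± 59.2 TPM in PMJ2R and 1639 ± 22.1 TPM in ID8, and the E2F factors the smallest, 156 ± 11.2 TPM in PMJ2R and 120 ± 4.47 TPM in ID8. Mcm3 at 515 TPM, Mcm5 at 421 TPM and Rrm2 at 339.7 TPM led in PMJ2R, and Rrm2 at 448.5 TPM, Pcna at 436 TPM and Mcm7 at 317 TPM led in ID8. Orc1, at 17.4 TPM in PMJ2R and 17.1 TPM in ID8, was the lowest of all members in PMJ2R and next to lowest, after Gins3 at 16.5 TPM, in ID8.

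The largest gaps between the lines' control cells were in single subunits of complexes. Orc2 had 169.7, 174 and 142 TPM in PMJ2R, against 55.7, 57.7 and 53.1 TPM in ID8, 2.83-fold higher by counts (log2 1.50 ± 0.0665, adjusted p = 2.97e-14). Pola2 had 97.1, 93.8 and 96.5 TPM in PMJ2R, against 37.2, 37.8 and 37.1 TPM in ID8 (log2 1.32 ± 0.0582, adjusted p = 2.85e-14). Both were higher in every PMJ2R library than in any ID8 library. Gins2 had 52.0, 50.5 and 48.8 TPM in PMJ2R, against 109, 105 and 104 TPM in ID8 (log2 -1.11 ± 0.0584). Rfc3 had 26.4, 25.3 and 24.6 TPM in PMJ2R, against 47.9, 50.4 and 51.4 TPM in ID8 (log2 -1.02 ± 0.067). Mcm7 had 174, 167.5 and 157 TPM in PMJ2R, against 309.6, 320.3 and 322 TPM in ID8 (log2 -0.98 ± 0.0596). In these 3 the lines did not overlap either, in the other direction. Orc2, Gins2 and Mcm7 share 29.8%, 67.3% and 12.6% of their exon bases with other genes, and Pola2 and Rfc3 share 0. The strand setting of the counting is not given, so the gaps in Orc2, Gins2 and Mcm7 may hold reads of those genes.

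At the other end stood 5 genes whose control levels were closest. Uhrf1 had 251, 271 and 258 TPM in PMJ2R and 260.0, 263.5 and 258 TPM in ID8. Prim1 had 55.8, 56.1 and 49.7 TPM in PMJ2R and 52.5, 56.1 and 53.0 TPM in ID8. Uhrf1 and Prim1, which began at these near-equal levels, differed in their rebastinib response by -1.71 and -1.18. Pold2 had 192, 192 and 208.5 TPM in PMJ2R and 202, 189 and 204 TPM in ID8. E2f1 had 60.1, 63.0 and 65.2 TPM in PMJ2R and 59.5, 60.5 and 58.6 TPM in ID8. Orc1 had 17.9, 18.4 and 15.8 TPM in PMJ2R and 16.5, 18.5 and 16.2 TPM in ID8. None of the 5 passed the test in edgeR, with log2 differences between -0.05 and 0.03 and standard errors of 0.0582 to 0.0821.

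**Figure D4:**
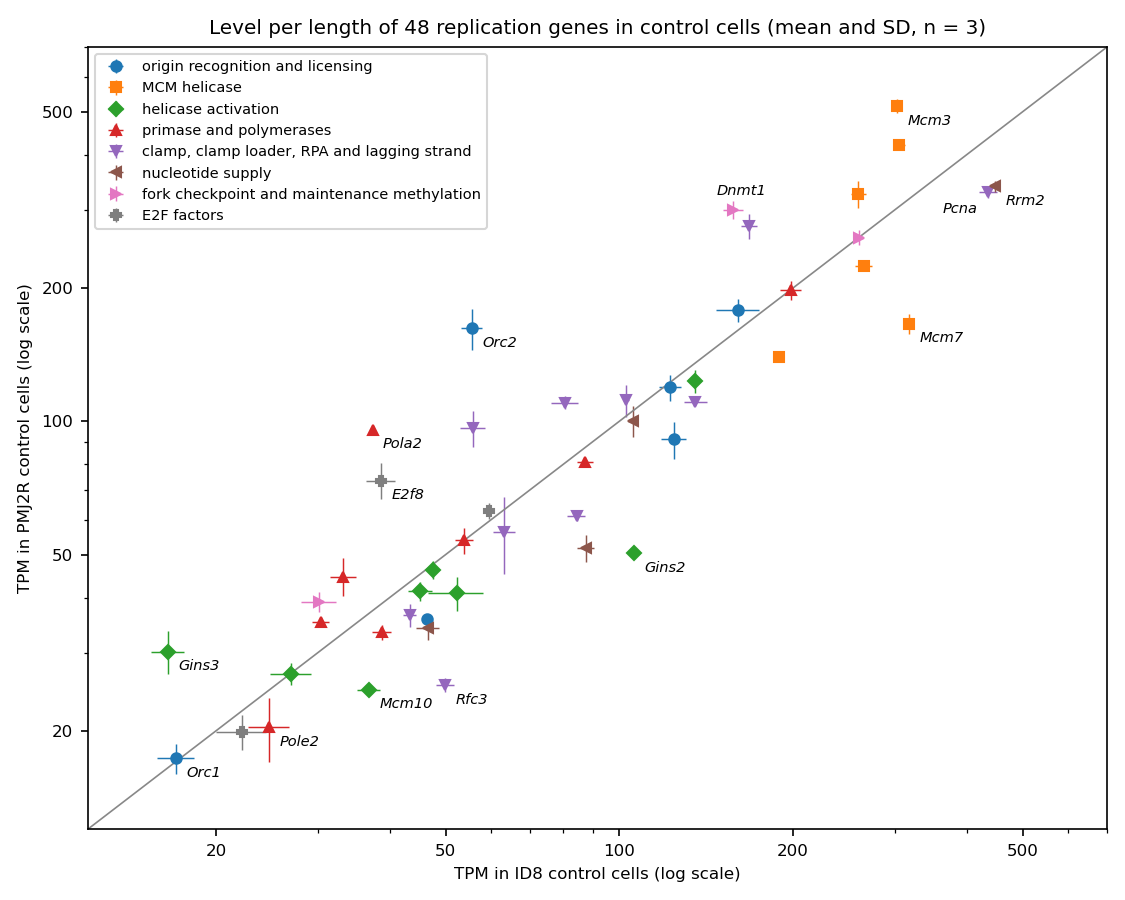
Mean TPM of the 48 genes in PMJ2R control cells (y axis) against ID8 control cells (x axis), both on log scales, with SD of 3 libraries and a line of equality. Points lie on both sides of the line, furthest above it for Orc2 and Pola2 and furthest below it for Gins2, Rfc3 and Mcm7. Dnmt1, E2f8 and Gins3 are among others that lie above it.

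Promoter sequence was read for the members because they moved together in PMJ2R and because E2F factors are among them. RefSeq promoter windows of GRCm38.p6, from 250 bases before to 50 bases after the start, were matched for 40 of the 48 genes. An E2F octamer (TTTCCCGC, TTTGGCGC, TTTCGCGC or TTTGCCGC on either strand, overlaps counted) was found in 17 of the 40, or 42.5%, against 2.6% of all 27025 genes, counted in the same way over any window of a gene. A CCAAT box was found in 26 of the 40, or 65.0%, against 41.1% of all genes. The letters are shown for 200 bases before the start in 5 members. Mcm6 and Mcm5 are ring subunits with paired overlapping octamers. Pola1 holds an octamer and did not pass the test in PMJ2R. Mcm10 and E2f8 fell furthest in PMJ2R and hold none of these exact octamers in the window. The 5 were picked by hand with their values known, so they do not show how octamers and responses relate. Whether E2F factors took part in any response was not tested. Capitals mark E2F octamers and CCAAT boxes on either strand, and each sequence is written 5′ to 3′ along the gene.
Mcm6, chr1:128359706-128359905, minus strand: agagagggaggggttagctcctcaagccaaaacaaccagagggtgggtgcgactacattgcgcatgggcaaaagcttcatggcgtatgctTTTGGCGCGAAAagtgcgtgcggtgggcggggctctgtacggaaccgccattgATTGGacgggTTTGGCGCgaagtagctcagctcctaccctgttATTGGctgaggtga
Mcm5, chr8:75109309-75109508, plus strand: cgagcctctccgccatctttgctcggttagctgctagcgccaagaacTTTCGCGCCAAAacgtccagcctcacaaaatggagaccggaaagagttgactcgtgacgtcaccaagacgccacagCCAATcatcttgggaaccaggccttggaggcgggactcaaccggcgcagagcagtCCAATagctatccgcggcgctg
Pola1, chrX:93632156-93632355, minus strand: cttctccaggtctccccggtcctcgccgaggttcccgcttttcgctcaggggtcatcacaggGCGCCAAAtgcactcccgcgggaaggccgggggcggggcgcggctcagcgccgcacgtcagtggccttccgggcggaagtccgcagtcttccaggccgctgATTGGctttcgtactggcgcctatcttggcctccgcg
Mcm10, chr2:5012792-5012991, minus strand: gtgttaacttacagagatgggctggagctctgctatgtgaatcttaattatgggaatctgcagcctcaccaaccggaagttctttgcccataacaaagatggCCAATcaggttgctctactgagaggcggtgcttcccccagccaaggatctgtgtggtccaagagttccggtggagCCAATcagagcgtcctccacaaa
E2f8, chr7:48881597-48881796, minus strand: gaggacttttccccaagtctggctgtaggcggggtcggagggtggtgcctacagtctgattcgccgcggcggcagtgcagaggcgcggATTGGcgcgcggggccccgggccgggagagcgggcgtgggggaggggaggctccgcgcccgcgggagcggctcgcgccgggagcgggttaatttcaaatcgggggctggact

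In Mcm6 the octamers begin 110, 106 and 47 bases before the start, the first of which overlaps the next, and in Mcm5 they begin 153 and 149 bases before it and overlap. Pola1 has 1 octamer, 138 bases before its start. Mcm10 has CCAAT boxes 98 and 23 bases before its start, and E2f8 has 1 that begins 112 bases before its start. Members with an octamer had a median log2 fold change of -1.01 in PMJ2R, with 14 of 17 lower, and those without one -0.76, with 21 of 23 lower. In ID8 the medians were -0.09 with and -0.13 without an octamer. These medians are a description, and a match shows letters in a window, not a bound factor.

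Other genes of the same processes were read from 4 lists. Of all genes tested, 43.6% were lower and 40.1% higher in PMJ2R, and 42.0% were lower and 38.4% higher in ID8. Of 29 further replication fork and origin genes, 21 were lower and 7 higher in PMJ2R (median -1.04), and 22 were lower and 5 higher in ID8 (median -0.78). Timeless, a fork protection factor, was at -3.32 in PMJ2R and -1.79 in ID8, and Chaf1a, the large subunit of the histone chaperone CAF-1, at -2.40 in PMJ2R and -1.38 in ID8. In ID8 these further genes thus had a lower median than the 48 members. Of 29 other E2F, RB and G1/S genes, 23 were lower and 6 higher in PMJ2R (median -0.70), and 17 were lower and 8 higher in ID8 (median -0.36). Exo1, a repair nuclease, was at -3.32 in PMJ2R and -1.95 in ID8, and Msh6, a mismatch repair gene, was at -2.26 in PMJ2R. With the length and GC offsets, the fork and origin list had 20 lower and 7 higher in PMJ2R (median -0.81). In ID8 it had 18 lower and 5 higher (median -0.63). The E2F, RB and G1/S list then had 21 lower and 6 higher in PMJ2R (median -0.60), and 14 lower and 11 higher in ID8 (median -0.16).

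Of 28 G2/M and mitosis genes, 25 were lower and 1 higher in PMJ2R (median -1.46), and 22 were lower and 4 higher in ID8 (median -0.63). Mki67, the common proliferation marker, was at -2.03 in PMJ2R and -2.06 in ID8, below the median of the list in both lines. Birc5 of the same list went the other way in ID8, with a mean of 166 CPM with rebastinib against 95.2 CPM in control. In PMJ2R Birc5 had 64.7 CPM with rebastinib against 87.6 CPM in control. Of 18 other nucleotide supply genes, 7 were lower and 8 higher in PMJ2R (median 0.06), and 4 were lower and 13 higher in ID8 (median 0.39). In PMJ2R these counts were near the shares of all genes, 43.6% lower and 40.1% higher, while Rrm2 and Tk1 were lower in both lines. Nme1, a nucleoside diphosphate kinase, was at 2.15 in ID8, and Rrm2b, the alternative small subunit of ribonucleotide reductase, was at -2.57 in ID8. In the test of the difference between the lines Rrm2b was at 2.30, the opposite sign to Rrm2 at -0.51. With the length and GC offsets, the G2/M list had 25 lower and 2 higher in PMJ2R (median -1.18), and 20 lower and 5 higher in ID8 (median -0.49). The nucleotide supply list then had 4 lower and 11 higher in PMJ2R (median 0.245), and 3 lower and 15 higher in ID8 (median 0.54).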

How the data were processed

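The deposited table held raw counts per gene for 12 libraries, whole numbers that the authors had not normalized. Per the submitters' processing notes, FastQC, STAR 2.6.1c, featureCounts, DESeq2 and the genome build GRCm38 were used, with no order or role given. Which annotation and strand setting served the counting is not given in the sources used here, so values of genes with shared exons are uncertain. Groups and replicate numbers came from the sample titles. The 48 genes and all lists were chosen with earlier results of these data known.

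Each comparison was fitted over all genes with edgeR 4.0.16 in R 4.3.3 (TMM, default filter, robust quasi-likelihood test, Benjamini-Hochberg adjustment at 0.05): rebastinib against control within each line, the difference of the responses over 12 libraries, and control cells of PMJ2R against ID8 with no minimum fold. CPM were TMM-scaled within a line. TPM used the summed exon length from GENCODE vM21 and were set side by side for control cells alone. Per-library values were given for the member with the smallest p of each role and direction, for 6 members for the difference, for 5 with the largest and 5 with the smallest control difference, and beyond that rule, chosen after their values were seen, for Cdc45, Orc6, Orc2 and Pola1; others are given by counts and fold changes. Alternatives were other scalings, DESeq2 1.42.0, other filters, length and GC offsets (splines with 5 degrees of freedom), a replicate block, and leaving out each library. The scripts were tested on simulated counts. Of the identifiers, 181 with 0.00261% of counts had no symbol. Replicates of a group differed by more than sampling noise (chi-square per degree of freedom from 1.72 to 23.5, widest between ID8 rebastinib replicates 1 and 3), so none was counted as a repeat of another.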

Additional observations from a re-analysis of the deposited data

Results flagged for a closer look

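The rebastinib response of 40 of the 48 genes differed between the lines in a direct test of the difference (edgeR interaction over 12 libraries, adjusted p under 0.05), with each more negative in PMJ2R than in ID8. The values below are PMJ2R minus ID8 on the log2 scale. Among licensing genes the difference was -0.87 for Orc1, -0.98 for Orc6, -0.96 for Cdc6 and -1.05 for Gmnn. In the MCM ring it was -0.69 for Mcm2, -0.46 for Mcm3, -0.89 for Mcm5, -1.42 for Mcm6 and -0.66 for Mcm7. In helicase activation it was -0.87 for Mcm10, -1.47 for Gins1, -0.83 for Gins2, -1.11 for Gins3, -1.45 for Gins4 and -0.45 for Cdc7, so the 4 GINS subunits ranged over -0.83 to -1.47.

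Among primase and polymerases the difference was -0.99 for Pola2, -1.18 for Prim1, -0.84 for Prim2, -1.01 for Pold1, -0.96 for Pold2 and -1.40 for Pole2. In the clamp group it was -0.63 for Pcna, -0.76 for Rfc1, -0.94 for Rfc2, -1.14 for Rfc3, -1.71 for Rfc5, -0.99 for Rpa1, -1.67 for Rpa2, -0.70 for Fen1 and -1.19 for Lig1. For nucleotide supply it was -0.50 for Rrm1, -0.51 for Rrm2, -0.87 for Tyms and -1.15 for Tk1. For the fork checkpoint and maintenance methylation it was -1.18 for Clspn, -1.71 for Uhrf1 and -0.86 for Dnmt1, and for the E2F factors -1.44 for E2f1, -0.60 for E2f2 and -0.99 for E2f8. Genes that overlap ribosomal RNA took a larger share of PMJ2R than of ID8 rebastinib libraries, and their part in these differences was not tested beyond the scalings.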

How the results depend on the processing

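Of all 48 members under the alternatives, 623 of 720 values in ID8, 691 of 720 in PMJ2R, 981 of 1008 for the difference of response and 681 of 720 for control cells kept their direction and their side of the threshold. Log2 values that changed sign are given here by setting, many of them of members that did not pass the test. With library totals alone, ID8 had 1 member higher and 37 lower and PMJ2R had 0 higher. The changed values were Orc2 -0.37, Gmnn -0.0012, Mcm3 -0.037, Mcm5 -0.25, Mcm6 -0.42, Mcm7 -0.082, Gins3 -0.36, Gins4 -0.32, Dbf4 -0.35, Prim2 -0.36, Pold2 -0.15, Rfc1 -0.19, Rfc2 -0.35, Rfc3 -0.36, Fen1 -0.12, Lig1 -0.090, Rrm1 -0.27 and Tyms -0.35 in ID8, Orc2 -0.40, Cdt1 -0.14 and Dbf4 -0.37 in PMJ2R, Orc2 -0.035 and Dbf4 -0.023 for the difference, and Orc1 0.066, Cdc7 0.034, Prim1 0.041, Pold2 0.033 and Uhrf1 0.036 in control cells. That scaling shifts every gene of a library alike by its construction, by a median of -0.432 in ID8 and -0.557 in PMJ2R. With no expression filter all genes shifted by a median of -0.206 in PMJ2R, which then had 1 member higher, and values changed to Mcm6 -0.0083 in ID8, Orc2 -0.050 and Dbf4 -0.019 in PMJ2R, and Orc2 -0.022 and Dbf4 -0.011 for the difference. With a filter of 5 CPM they changed to Orc2 -0.027, Mcm6 -0.074, Gins3 -0.020, Dbf4 -0.0077, Prim2 -0.017, Rfc2 -0.0074, Rfc3 -0.015 and Tyms -0.0093 in ID8. Mcm3 in PMJ2R was at 0.036 with RLE size factors and with DESeq2, and at 0.012 with TMM set without rRNA-overlapping, mitochondrial and ribosomal protein genes.

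With length and GC offsets all genes shifted by a median of 0.119 in ID8 and 0.129 in PMJ2R, and PMJ2R had 6 members higher. Values changed to Mcm2 0.29, Gins3 -0.11, Gins4 -0.29, Pola1 0.081, Dnmt1 0.017, E2f1 0.031 and E2f2 0.30 in ID8, Mcm3 0.39, Mcm7 0.25, Pola1 0.032 and Rpa1 0.15 in PMJ2R, and Cdt1 0.15, Dbf4 -0.16 and Pola1 -0.059 for the difference. DESeq2 called 1 member, Pole, higher for the difference. The cause of the filter, offset and DESeq2 changes was not tested. Leaving out each library gave 12 to 14 higher and 19 to 21 lower in ID8, 2 to 3 and 42 to 44 in PMJ2R, 0 and 40 to 41 for the difference, and 13 to 15 and 19 to 22 for control cells. It moved Gins3 over -0.040 to 0.18 and E2f2 over -0.18 to 0.0037 in ID8, Mcm3 over -0.034 to 0.021 in PMJ2R, Orc2 over -0.043 to 0.100 for the difference, and Orc1 over -0.059 to 0.030 and E2f1 over -0.012 to 0.079 in control cells. In control cells, calls of Pold1, Prim2, Gins4 and E2f2 were lost without 1 or more libraries, at log2 values between -0.18 and 0.16.

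Same-numbered libraries did not deviate together (correlations from -0.136 to 0.0771 within a line, over the genes tested). Such values cannot show whether these libraries were handled together, and the labels do not say. With the replicate block 12 members were higher and 21 lower in ID8, 3 and 43 in PMJ2R, 0 and 40 for the difference, and 14 and 21 in control cells. The block with length and GC offsets gave 6 members higher in PMJ2R, with Mcm3 0.39, Mcm7 0.25, Pola1 0.033 and Rpa1 0.15 there, Mcm2 0.29, Gins3 -0.11, Gins4 -0.29, Pola1 0.080, Dnmt1 0.016, E2f1 0.031 and E2f2 0.30 in ID8, and Cdt1 0.15, Dbf4 -0.16 and Pola1 -0.057 for the difference.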
